A study of Homo sapiens with 10 samples.

Results

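Probe sets named ACA on the Affymetrix miRNA 2.0 array measure H/ACA small nucleolar RNAs (snoRNAs) and small Cajal body RNAs (scaRNAs). The members were all rows of the deposited value table whose name starts with ACA and a digit. There were 111 of them, for 77 RNAs, among 4560 human probe sets. Of these 111, 43 probe sets for 34 RNAs had a mean log2 signal above 1.31 over the 10 arrays and 68 did not. This floor was set by plant RNAs, of which the array has 2392 probe sets: 95% of those had a lower 10-array mean. The 2 members just inside the floor were ACA66_x_st at 1.311 and ACA16_st at 1.348, and the 2 just outside were ACA41_x_st at 1.310 and ACA54_st at 1.304.

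Total RNA came from HEK-293, a human embryonic kidney cell line, and each array held 1 sample. The groups were LINC00324 siRNA 2, LINC00324 siRNA 1, LOC400043 siRNA 2, LOC400043 siRNA 1 and a scramble siRNA, with 2 arrays each. All siRNAs, scramble included, were given at 10 nM by transient transfection. LINC00324 and LOC400043 are long noncoding RNAs, neither is measured on this array, and the extent of silencing could not be checked. Replicates are called biological in the labels, with no word on separate cultures, and p-values therefore cover only array-to-array spread, which may be technical. The study asked how silencing of each long noncoding RNA changes small RNAs.

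H/ACA RNAs fold into hairpins joined by a hinge, the H box, and end in an ACA box near the 3′ end. With dyskerin and its partner proteins they direct the conversion of uridine to pseudouridine, in ribosomal RNA for most snoRNAs and in spliceosomal RNA for scaRNAs, which reside in Cajal bodies. In human cells most are cut from introns of host genes, many of which code for ribosomal proteins or are noncoding genes of the SNHG class.

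No sequence of an ACA RNA or of its probes was in the files, but RefSeq hairpins of microRNAs overlap 4 members in GRCh38.p14, and these stretches show the boxes that define the class. ACA34 (SNORA2C), inside KANSL2, overlaps MIR1291. The first 75 bases of ACA34 are covered, at chr12:48654444-48654518 on the minus strand, and the last of 2 matches to ANANNA, the form of the H box, is in capitals.
ACA34: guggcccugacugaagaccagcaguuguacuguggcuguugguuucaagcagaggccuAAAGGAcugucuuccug
The positions given next are of the stretch shared by RNA and hairpin. ACA36B (SNORA36B, inside RAB3GAP2) overlaps MIR664A at chr1:220200546-220200619 on the minus strand. ACA36 (SNORA36A, inside DKC1, the dyskerin gene) overlaps MIR664B at chrX:154768596-154768656 on the plus strand. The scaRNA ACA47 (SCARNA16) overlaps MIR6516 at chr17:77089417-77089493 on the plus strand. In all 3 the capitals mark ACA, 3 bases from the 3′ end of the annotated RNA, where the ACA box lies.
ACA36B: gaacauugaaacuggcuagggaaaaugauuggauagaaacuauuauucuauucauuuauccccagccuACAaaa
ACA36: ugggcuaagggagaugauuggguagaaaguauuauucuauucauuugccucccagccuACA
ACA47: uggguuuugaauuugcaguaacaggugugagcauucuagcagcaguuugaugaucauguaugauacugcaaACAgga
ANANNA was found in the first 75 bases of 58.8% of 1010 human hairpins of at least 75 bases, and its reverse complement UNNUNU in 70.4%. A match to so loose a motif is common, so the one marked in ACA34 is not established as its H box. ACA stood at bases 4 to 6 from the 3′ end in 1.79% of 1562 hairpins, and UGU, the other strand, in 2.05%.

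ACA34_st had signals of 3.18 and 3.25 in LINC00324 siRNA 2, 4.07 and 2.96 in LINC00324 siRNA 1, and 3.35 and 3.60 in scramble arrays. The siRNA 2 arrays lay below both scramble arrays, as in 23% of the 725 human probe sets above the floor, while siRNA 1 spanned them. By limma the siRNA 2 difference from scramble was -0.26 ± 0.33 (SE, adjusted p = 0.661). ACA34_x_st on the same RNA lay the other way, at 0.29 ± 0.23 (adjusted p = 0.459). ACA34_st was 3.49 and 3.81 in LOC400043 siRNA 2, against 2.996 and 3.09 in LOC400043 siRNA 1. Those groups did not overlap, at 0.61 ± 0.33 (adjusted p = 0.384). Neither ACA36B probe set (means 0.86 and 0.88), nor that of ACA36 (1.04), nor those of ACA47 (1.26 and 0.92) had a mean above the floor. The probe sets of miR-1291 and of its hairpin, made from ACA34, had means of 0.83 and 0.82 and were above the floor on 0 of 10 arrays. The 3′ arm of miR-664a ends with the ACA box of ACA36B. Its seed (bases 2 to 8) is in capitals.
miR-664a-3p: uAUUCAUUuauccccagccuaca
Its probe set hsa-miR-664_st had signals of 1.91 and 1.73 in LINC00324 siRNA 2, 1.66 and 1.81 in LINC00324 siRNA 1, and 2.28 and 1.90 in scramble arrays, and its differences from scramble did not pass limma's test (adjusted p = 0.515 for siRNA 2 and 0.613 for siRNA 1). It was 0.83 and 1.34 in LOC400043 siRNA 2, against 1.27 and 1.58 in LOC400043 siRNA 1 (adjusted p = 0.497). The other arm, hsa-miR-664-star_st, was above the floor on 0 of 10 arrays.

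MicroRNAs listed for a kidney epithelial line were above the floor for 6 of 6, at means of 6.08 to 12.79. Of those listed for other tissues, 0 of 6 for muscle, 0 of 1 for liver and 1 of 6 for blood (highest mean 1.81) were. No other cell type was measured here, so these values do not establish the identity of the cells. Replicate arrays correlated at 0.978 to 0.987 over the 725 human probe sets above the floor and at 0.947 to 0.980 over the 43 ACA probe sets. Replicate 1 minus replicate 2 had a median over the ACA probe sets of -0.16 in LINC00324 siRNA 2, 0.25 in LINC00324 siRNA 1 and -0.25 in scramble arrays. Background probe sets of 23 to 25 G or C bases averaged 2.21 and 2.43 in LINC00324 siRNA 2, 1.95 and 2.03 in LINC00324 siRNA 1, and 3.21 and 3.22 in scramble arrays. They averaged 3.70 and 3.58 in LOC400043 siRNA 2, against 4.44 and 4.40 in LOC400043 siRNA 1. Their part in the results was not tested. The LOC400043 arrays were normalized in another run, for which ACA probe sets have no scramble value here, so they are compared only with each other.

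The 43 ACA probe sets spanned means of 1.31 to 7.08, with a median of 2.11, and 24 of them were above the floor on all 10 arrays. A share of 38.7% of ACA probe sets passed the floor, against 66.7% of 228 named U or HBII (mostly C/D box snoRNAs, which guide methylation) and 30.0% of 1105 for mature microRNAs. Signals of different probe sets depend on their probes, so the order below is of signals and not of RNA amounts. ACA44_s_st (SNORA44, in SNHG12) was the brightest over the scramble arrays, at 6.58 ± 0.09 (SD, n = 2 here and below). ACA7_s_st (in RPL32) followed at 5.51 ± 0.28, ACA7B_s_st (in RPL32P3) at 5.35 ± 0.18, ACA3-2_x_st (in RPL27A) at 5.11 ± 0.11 and ACA18_x_st (in TAF1D) at 4.94 ± 0.70. Neighbours among these last 4 did not differ beyond their spread. ACA7 and ACA7B are near-identical copies, so their probe sets may read both. The first 50 bases of ACA7, at chr3:12840401-12840450 on the minus strand, are covered by the RefSeq window of the RPL32 start site and show where this RNA begins.
ACA7: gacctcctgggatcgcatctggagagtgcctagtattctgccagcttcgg

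The next 5 over the scramble arrays were ACA48_st (in EIF4A1) at 4.08 ± 0.17, ACA15_s_st (in CCT6A) at 3.997 ± 0.97, ACA48_x_st at 3.93 ± 0.18, ACA10_s_st (in RPS2) at 3.77 ± 0.42 and ACA3_st (in RPL27A) at 3.52 ± 0.39. These 5 also lay within their spread of one another in order. The 5 lowest were ACA23_st at 1.23 ± 0.17, ACA20_st at 1.21 ± 0.44, ACA66_x_st at 1.20 ± 0.19, ACA44_st at 0.95 ± 0.37 and ACA16_st at 0.95 ± 0.02, all under the floor in scramble by mean. These 5 passed the floor through their values in other groups. The 68 members under the floor had means of 0.69 to 1.31, and 37 of them exceeded the floor on at least 1 array, the highest single value being 2.06.

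Probe sets of 1 RNA disagreed in signal. Of 32 RNAs with more than 1 probe set, 7 had means that differed by more than 1 on the log2 scale. ACA44 had the widest gap, with 7.08 for ACA44_s_st against 1.54 for ACA44_st. ACA3-2 had 5.24 for ACA3-2_x_st against 2.12 for ACA3-2_st, and ACA34 had 3.38 for ACA34_st against 0.84 for ACA34_s_st. In Affymetrix naming, _s marks probes shared by several transcripts and _x probes that may cross-hybridize. ACA48 was closer by this mean, with 4.63 for ACA48_x_st and 4.30 for ACA48_st, but the mean pools both normalization runs. Over the scramble arrays the means were 3.93 for ACA48_x_st and 4.08 for ACA48_st. In LOC400043 siRNA 1, ACA48_x_st had 4.97 and 5.03, against 3.91 and 4.06 for ACA48_st. In LOC400043 siRNA 2, ACA48_x_st had 5.26 and 5.94, against 4.17 and 4.68 for ACA48_st.

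**Figure D1:**
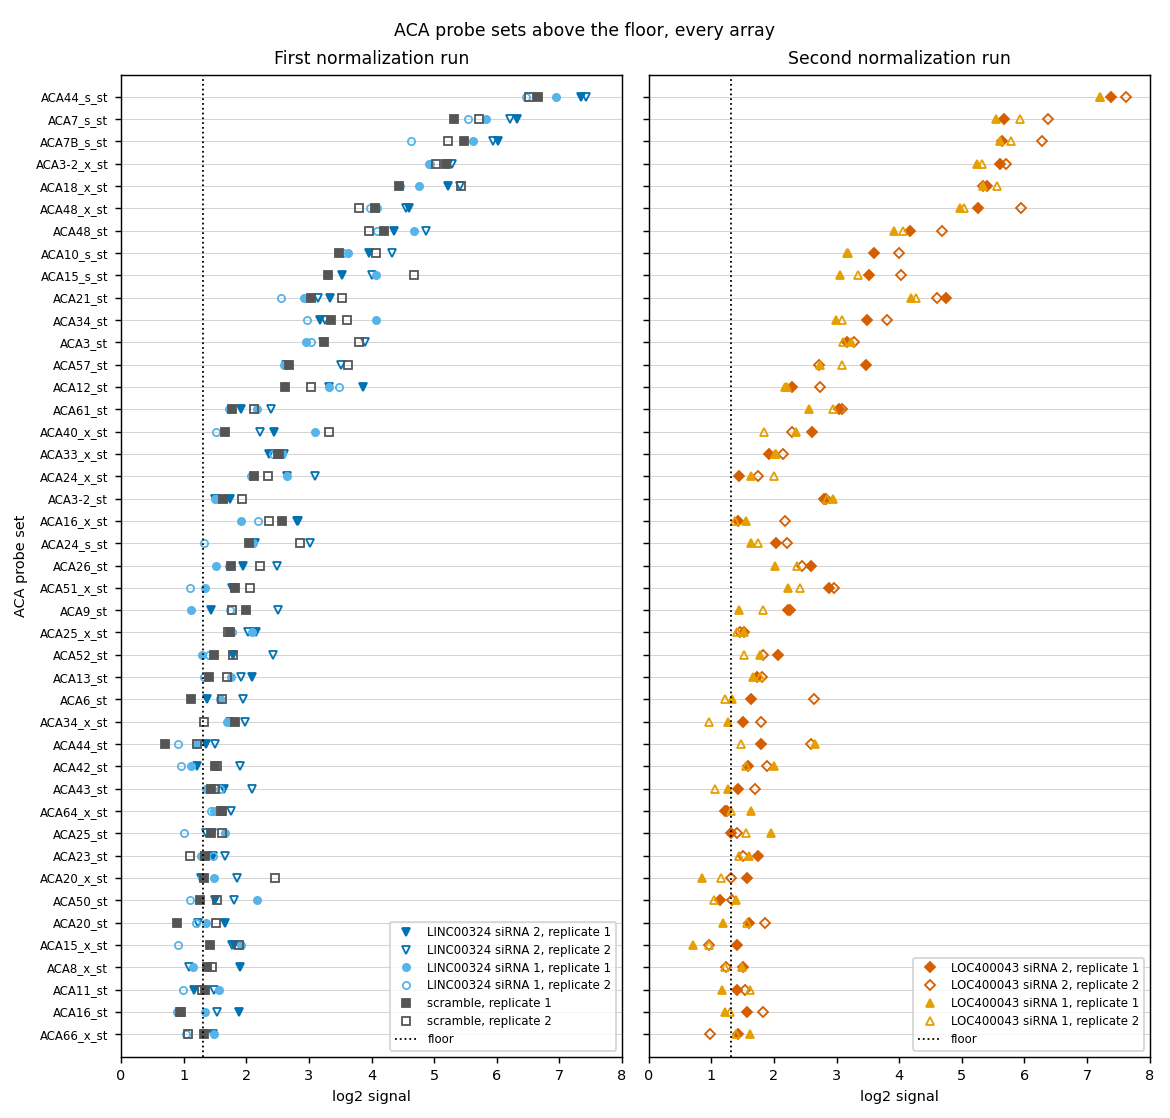
Log2 signal (x axis) of each of the 43 ACA probe sets above the floor (rows), with 1 point per array, filled for replicate 1 and open for replicate 2, and the normalization runs in separate panels. ACA44_s_st lies highest, and most rows lie between the floor (dotted, 1.31) and 3.

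In LINC00324 siRNA 2 against scramble, 1 of the 43 ACA probe sets rose and 0 fell, where 14.2% of 725 human probe sets passed in either direction and 9.24% passed as higher. The probe set was ACA44_s_st, named for the H/ACA snoRNA SNORA44, which is processed from SNHG12. Its _s marks probes shared by several transcripts, so its signal may not be of SNORA44 alone. ACA44_s_st read 7.34 and 7.42 in LINC00324 siRNA 2 arrays, against 6.65 and 6.52 in scramble arrays, and the groups did not overlap. It rose by 0.80 ± 0.20 (SE) on the log2 scale, or 1.74-fold, with an adjusted p of 0.0438 by limma with Benjamini-Hochberg adjustment over the 725. In bulk RNA, a change in the number of cells that hold an RNA and a change in its amount per cell cannot be told apart. The adjusted p stood close to the threshold of 0.05. It no longer passed when any 1 of the 4 arrays was left out. Such fits keep 1 array in a group, and calls then fell over all 725 as well, so this loss is not particular to ACA44_s_st. ACA44_s_st did not pass after quantile normalization either (0.33, adjusted p = 0.249), where calls over all 725 went from 103 to 44. With arrays centred on their medians, 7 ACA probe sets and 128 of all 725 passed as higher, and the median of all 725 moved to 0.33. At an unadjusted p under 0.05, 7 ACA probe sets were higher and 0 lower, against 30.9% of all 725 in either direction. The 2 siRNA groups are each compared below with the same scramble arrays, so their differences share those values.

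The second probe set of the same RNA, ACA44_st, read 1.36 and 1.51 in LINC00324 siRNA 2 and 0.70 and 1.21 in scramble arrays. Both scramble values were under the floor. From the floor the siRNA 2 arrays were at least 1.09-fold higher (measured difference 0.48 ± 0.42, adjusted p = 0.513). ACA44_st passed the filter through LINC00324 siRNA 2 and the LOC400043 arrays, since both LINC00324 siRNA 1 arrays (1.19 and 0.91) were also under the floor, and it adds nothing to the call of ACA44_s_st. Of the other members that did not pass, ACA16_st, another snoRNA of SNHG12, had 1.88 and 1.53 in siRNA 2, against 0.94 and 0.96 in scramble arrays. The measured difference was 0.76 ± 0.21 (adjusted p = 0.0539). Both scramble arrays were under the floor, so the fold from the floor was at least 1.32-fold higher. ACA16_x_st on the same RNA, above the floor on all 10 arrays, gave 0.36 ± 0.26 (adjusted p = 0.422).

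ACA12_st reads SCARNA23, a Cajal body RNA whose gene lies in POLA1, and its values were 3.86 and 3.32 in LINC00324 siRNA 2, against 2.62 and 3.04 in scramble arrays. The groups did not overlap, at 0.76 ± 0.25 (adjusted p = 0.0867). ACA48_x_st, a snoRNA from the translation initiation factor gene EIF4A1, had 4.60 and 4.55 in siRNA 2, against 4.06 and 3.80 in scramble arrays. Its difference was 0.65 ± 0.23 (adjusted p = 0.107), and that of ACA48_st, on the same RNA, 0.53 ± 0.29 (adjusted p = 0.267).

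ACA7_s_st, from the ribosomal protein gene RPL32, had 6.32 and 6.21 in LINC00324 siRNA 2, against 5.31 and 5.71 in scramble arrays, a difference of 0.75 ± 0.28 (adjusted p = 0.113). ACA7B_s_st had 6.02 and 5.94 in siRNA 2, against 5.48 and 5.22 in scramble arrays, at 0.63 ± 0.34 (adjusted p = 0.273). The copies could not be told apart. ACA24_x_st (SNORA24, which guides a modification of small-subunit ribosomal RNA, in SNHG8) had 2.65 and 3.09 in siRNA 2, against 2.13 and 2.34 in scramble arrays, at 0.63 ± 0.27 (adjusted p = 0.158). ACA24_s_st on the same RNA gave 0.14 ± 0.40 (adjusted p = 0.849).

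Over the 43 ACA probe sets the median difference of LINC00324 siRNA 2 from scramble was 0.23, with 33 above 0 and 10 below. It was 0.09 over all 725, with 415 above 0. The ACA median was 0.07 without scramble replicate 1, where all 725 had 0.06, and 0.39 without scramble replicate 2. It was 0.15 without LINC00324 siRNA 2 replicate 2 and 0.39 without replicate 1 of that group, so its size rested on single arrays. With arrays centred on their medians it was 0.46, against 0.33 over all, and with the stricter floor (4.50, which 6 ACA probe sets pass) 0.64, against 0.31. Among the 24 ACA probe sets above the floor on all arrays it was 0.29. Groups did not overlap for 15 ACA probe sets as higher and 1 as lower (ACA34_st), against 34.1% and 23% of all probe sets. The share of 34.9% as higher was near that background. Probe sets named U or HBII had a median of 0.59, with 46 of 152 called higher, and mature microRNAs a median of -0.19.

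**Figure D2:**
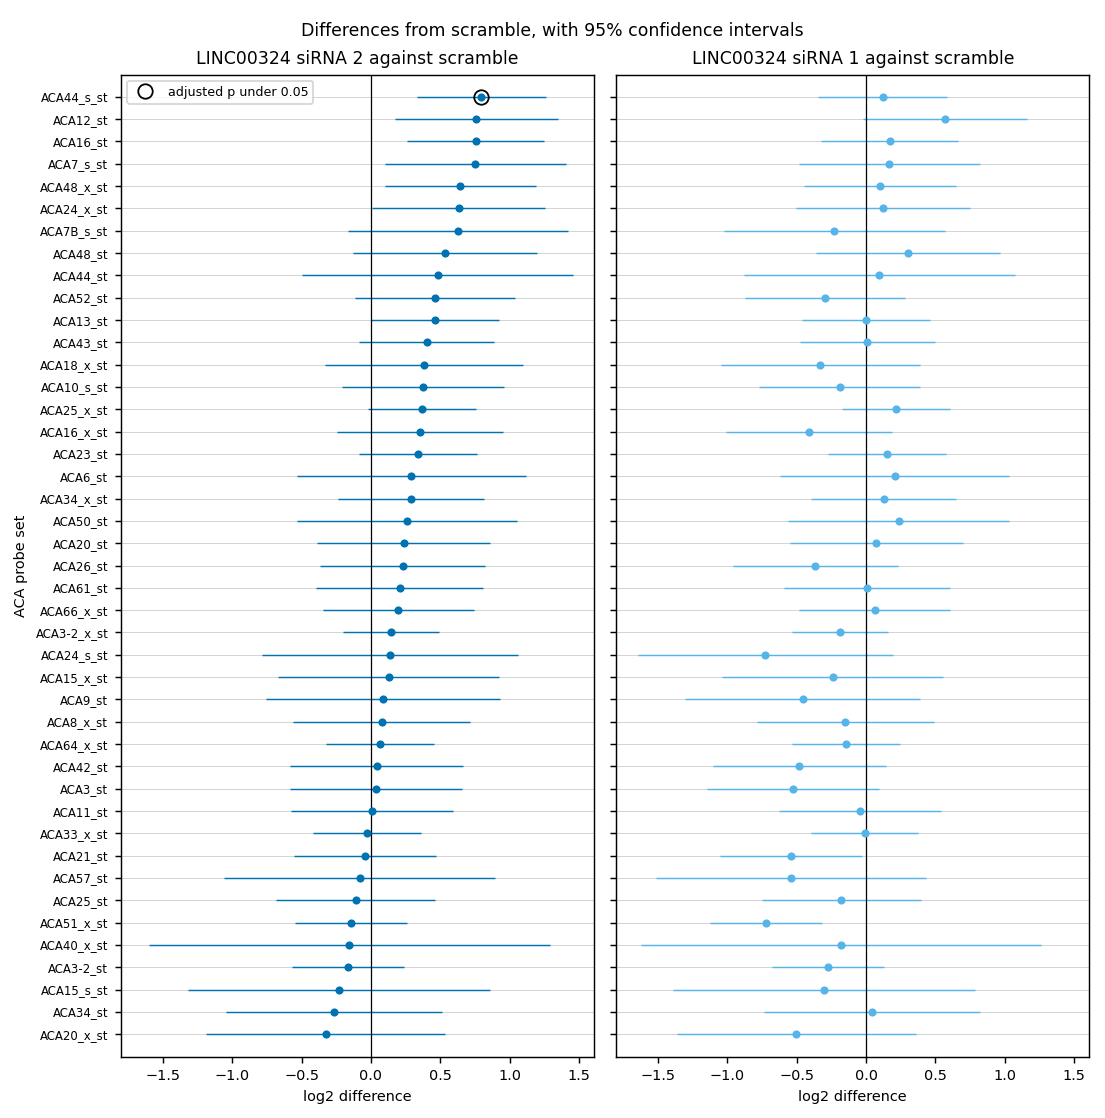
Log2 difference from scramble (x axis, with 95% confidence intervals from the limma fit) of each ACA probe set (rows) for LINC00324 siRNA 2 (left) and siRNA 1 (right), which share the scramble arrays. The circled ACA44_s_st in the left panel, at 0.80, is the 1 probe set that passed.

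For LINC00324 siRNA 1, 0 of the 43 ACA probe sets passed limma's test, where 2.76% of 725 did, all of them lower. At an unadjusted p under 0.05, 2 were lower, against 13.1% of all. ACA51_x_st, an H/ACA snoRNA of NOP56 (a core protein of C/D box particles), was nearest to passing. Its signals were 1.34 and 1.10 in LINC00324 siRNA 1, against 1.82 and 2.06 in scramble arrays, and the groups did not overlap. The difference was -0.72 ± 0.17 (adjusted p = 0.0846), with 1 of the 2 siRNA 1 arrays under the floor. In LINC00324 siRNA 2 the same probe set had 1.77 and 1.83, overlapping with scramble, at -0.14.

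ACA21_st (in RPL23) had 2.92 and 2.56 in LINC00324 siRNA 1, against 3.03 and 3.53 in scramble arrays, a difference of -0.54 ± 0.22 (adjusted p = 0.331). ACA12_st had 3.32 and 3.48 in siRNA 1, against 2.62 and 3.04 in scramble arrays, at 0.57 ± 0.25 (adjusted p = 0.401). ACA3_st (in RPL27A) had 2.96 and 3.03 in siRNA 1, against 3.24 and 3.80 in scramble arrays, at -0.53 ± 0.27 (adjusted p = 0.476). The siRNA 1 and scramble arrays did not overlap for any of these 3.

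ACA24_s_st gave -0.73 ± 0.40 (adjusted p = 0.534) with overlapping groups, while ACA24_x_st on the same RNA gave 0.12 ± 0.27 (adjusted p = 0.898). ACA42_st (SNORA80E) gave -0.48 ± 0.27 (adjusted p = 0.546). Both siRNA 1 arrays of ACA42_st were under the floor, from which it was at least 1.15-fold lower. The median over the 43 was -0.14, against -0.02 over all 725. It was 0.14 without LINC00324 siRNA 1 replicate 2 and -0.22 without LINC00324 siRNA 1 replicate 1, so its sign rested on 1 array. Scaling also turned it, to 0.07 with arrays centred on their medians and 0.04 after quantile normalization. Groups did not overlap for 2 ACA probe sets as higher and 12 as lower, against 19.3% and 23.9% of all.

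With the arrays of both LINC00324 siRNAs against scramble, 0 of the 43 passed, where 5.52% of 725 did, and 4 had an unadjusted p under 0.05 against 23% of all. ACA12_st had the lowest p. All 4 LINC00324 arrays lay above both scramble arrays, at 0.67 ± 0.22 (adjusted p = 0.122). The differences were -0.43 ± 0.15 for ACA51_x_st (adjusted p = 0.134) and 0.46 ± 0.17 for ACA44_s_st (adjusted p = 0.162). ACA16_st, under the floor on both scramble arrays, was at least 1.07-fold higher from the floor (measured difference 0.46 ± 0.18, adjusted p = 0.176). The brighter probe set of the same RNA, ACA16_x_st, gave -0.03 ± 0.22 (adjusted p = 0.952).

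ACA25_x_st, from the TAF1D gene that hosts several of these RNAs, had 2.16 and 2.02 in LINC00324 siRNA 2, 2.09 and 1.78 in siRNA 1, and 1.74 and 1.70 in scramble arrays. All 4 silenced arrays were higher, by 0.29 ± 0.15 (adjusted p = 0.285). The other probe set of this RNA, ACA25_st, lay the other way, at -0.15 ± 0.21 (adjusted p = 0.736) with overlapping groups. ACA7_s_st gave 0.46 ± 0.24 (adjusted p = 0.315). The median of the 43 was 0.03, against 0.05 over all probe sets, and ran between -0.03 (without scramble replicate 1) and 0.16 (without scramble replicate 2) when arrays were left out. Groups did not overlap for 2 as higher and 0 as lower, where 11.6% and 11.7% of all did.

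**Figure D3:**
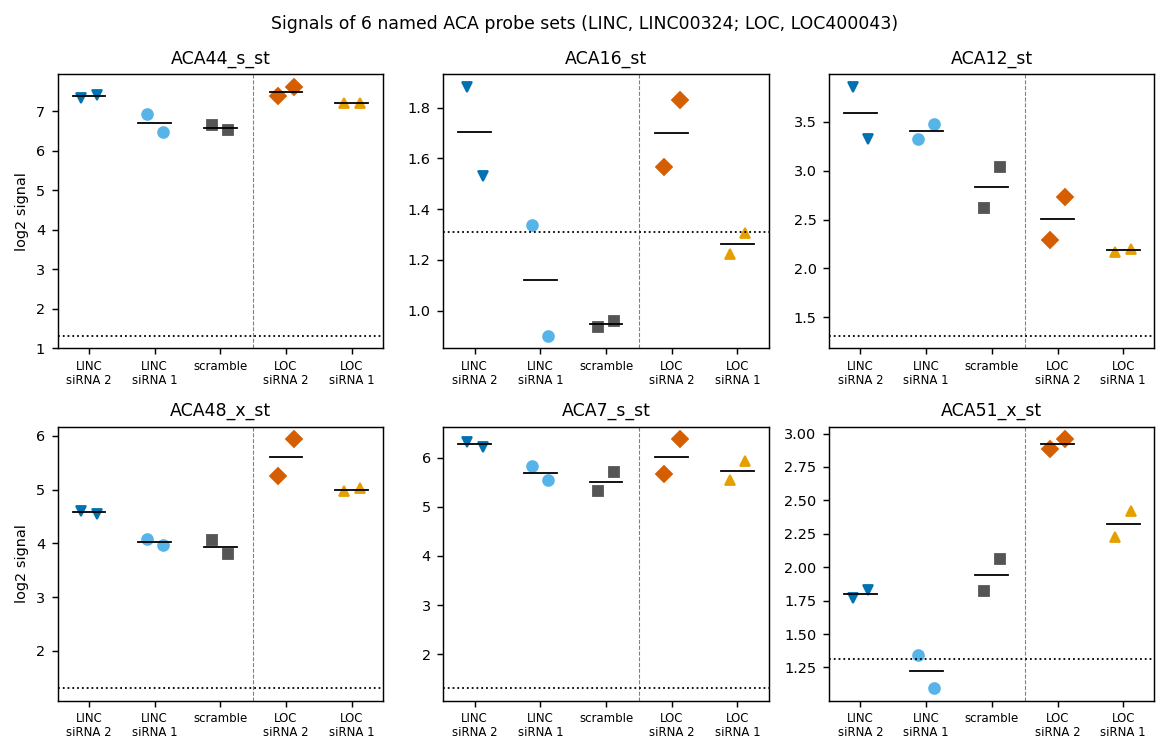
Log2 signal (y axis, a separate scale in each panel) of 6 named ACA probe sets in each array, by group (x axis), with the group mean as a bar and the floor of 1.31 as a dotted line. The dashed line separates the normalization runs. ACA44_s_st in LINC00324 siRNA 2 stands above scramble, and ACA51_x_st in LINC00324 siRNA 1 below it.

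Between the LINC00324 siRNAs, 0 of the 43 passed, where 0.552% of 725 did, and 8 had an unadjusted p under 0.05, all as higher in siRNA 2, against 22.9% of all. ACA44_s_st read 7.34 and 7.42 in LINC00324 siRNA 2, against 6.94 and 6.46 in LINC00324 siRNA 1. That was 0.68 ± 0.20 (adjusted p = 0.131). ACA51_x_st had 1.77 and 1.83 in siRNA 2, against 1.34 and 1.10 in siRNA 1, at 0.58 ± 0.17 (adjusted p = 0.131).

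ACA52_st (in RPLP2) had 1.79 and 2.42 in LINC00324 siRNA 2, against 1.30 and 1.40 in LINC00324 siRNA 1, at 0.76 ± 0.25 (adjusted p = 0.15). Both probe sets of ACA16 were higher in siRNA 2 without overlap. ACA16_x_st differed by 0.77 ± 0.26 (adjusted p = 0.155) and ACA16_st by 0.59 ± 0.21 (adjusted p = 0.178). ACA16_st had 1.88 and 1.53 in siRNA 2, against 1.34 and 0.90 in siRNA 1, the latter under the floor. It passed the filter mainly through the siRNA 2 arrays of both targets, so it adds nothing to ACA16_x_st. ACA7B_s_st gave 0.86 ± 0.34 (adjusted p = 0.192).

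Over the 43, the median of siRNA 2 minus siRNA 1 for LINC00324 was 0.37, with 41 above 0, against a median of 0.16 and 476 above 0 over all 725. It was 0.23 without LINC00324 siRNA 2 replicate 2, against 0.16 over all, and up to 0.49 when other arrays were left out. The 2 below 0 were ACA34_st at -0.30 and ACA33_x_st at -0.02, which were named after their values were seen. Groups did not overlap for 23 as higher and 0 as lower, against 37.5% and 15.4% of all.

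Between the LOC400043 siRNAs, 0 of the 43 passed, where 0.552% of 725 did, and 6 had an unadjusted p under 0.05, all as higher in siRNA 2, against 16.6% of all. ACA51_x_st had 2.88 and 2.96 in LOC400043 siRNA 2, against 2.22 and 2.42 in LOC400043 siRNA 1, at 0.60 ± 0.17 (adjusted p = 0.18). ACA3-2_x_st had 5.62 and 5.70 in siRNA 2, against 5.24 and 5.32 in siRNA 1, at 0.38 ± 0.15 (adjusted p = 0.273). ACA3-2_st on the same RNA differed by -0.08.

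ACA48_x_st had 5.26 and 5.94 in LOC400043 siRNA 2, against 4.97 and 5.03 in LOC400043 siRNA 1, at 0.60 ± 0.23 (adjusted p = 0.273). ACA10_s_st, in the ribosomal protein gene RPS2, gave 0.62 ± 0.25 (adjusted p = 0.274). ACA6_st, in the ribosomal protein gene RPSA, had 1.63 and 2.64 in siRNA 2, against 1.32 and 1.22 in siRNA 1, at 0.87 ± 0.35 (adjusted p = 0.274). ACA34_x_st gave 0.54 ± 0.23 (adjusted p = 0.281), or at least 1.27-fold higher from the floor, since both siRNA 1 arrays were under it.

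The median over the 43 was 0.31 between the LOC400043 siRNAs, with 36 above 0, against 0.15 over all 725, with 463 above 0. With arrays centred on their medians it was 0.08 where all probe sets had -0.07. Groups did not overlap for 21 ACA probe sets as higher and 3 as lower, against 35.9% and 13.9% of all. The comparisons of siRNA 2 with siRNA 1 for the 2 targets share no arrays. Of the 43 ACA probe sets, 34 (79.1%) were higher in siRNA 2 for both targets, which is the fewest that counts of 41 and 36 of 43 allow. Other snoRNA classes lay the same way: of 152 probe sets named U or HBII, 144 were higher for LINC00324 (median 0.52) and 140 for LOC400043 (median 0.41). Of 26 other named snoRNA and scaRNA probe sets, 24 and 21 were. The numbers 1 and 2 are names of different siRNAs for each target.

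**Figure D4:**
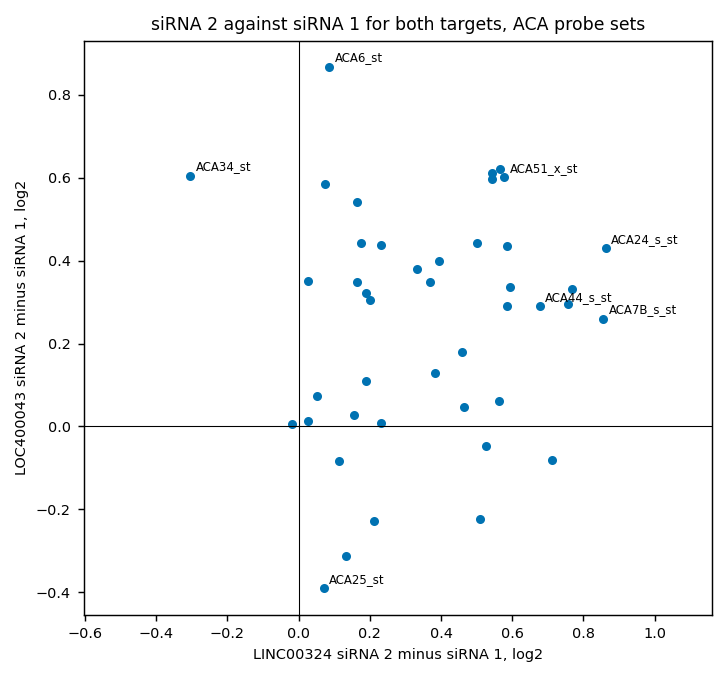
Log2 difference of siRNA 2 minus siRNA 1 for LINC00324 (x axis) against that for LOC400043 (y axis), with 1 point per ACA probe set above the floor. A count of 34 of the 43 points lies at the upper right, and 0 at the lower left.

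**Figure D5:**
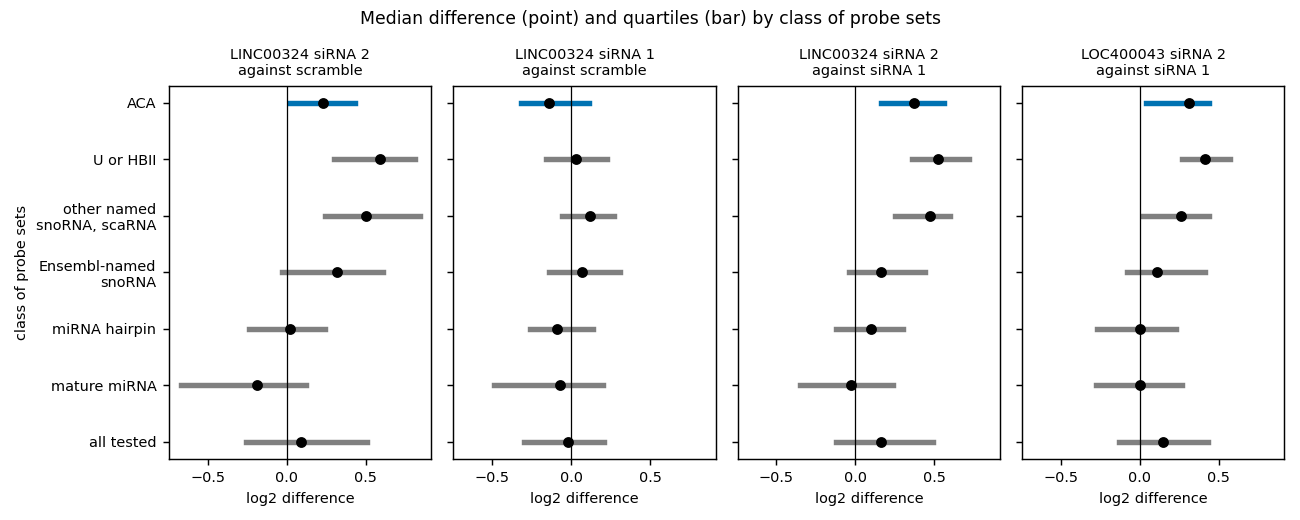
Median log2 difference (black points) and its quartiles (bars) over the probe sets of each class (rows) in 4 comparisons. ACA probe sets (blue) have a median of 0.23 for LINC00324 siRNA 2 against scramble, where those named U or HBII have 0.59.

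Grouped by host gene and place in the cell, with the brightest probe set standing for each RNA, 1 call was made in LINC00324 siRNA 2 against scramble, that of ACA44_s_st. SNHG12 hosts ACA44, ACA61 and ACA16, and all 3 were above the floor. In LINC00324 siRNA 2 against scramble 1 rose and 0 fell, with a median of 0.36 and a range of 0.21 (ACA61_st) to 0.80. Over all 725 the median was 0.09, and 9.24% were called higher. It was 0.23 over the 43 ACA probe sets, and 0.59 over those named U or HBII, of which 30.3% were called. The 1 call is that of ACA44_s_st given above, with the same limit of shared probes. In siRNA 1 against scramble 0 of 3 passed, with a median of 0.01. Of 12 RNAs of SNHG class hosts, 7 were above the floor. In siRNA 2 against scramble 1 passed, again ACA44_s_st, with a median of 0.36. That stood beside the same 0.09 and 9.24% over all, and 0.23 over the 43 ACA probe sets.

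Of 9 RNAs in ribosomal protein genes, 8 were above the floor. Their median was 0.22 in LINC00324 siRNA 2 and -0.19 in LINC00324 siRNA 1, both against scramble, with 0 calls. The 43 ACA probe sets had 0.23 and -0.14, and all 725 had 0.09 and -0.02. Of 6 RNAs of TAF1D, a factor of RNA polymerase I transcription, 4 were above the floor, with medians of 0.22 and -0.17 for the same comparisons and 0 calls. Of 5 RNAs in translation factor genes only ACA48 was above the floor. Of 3 RNAs of KANSL2 only ACA34 was, and of 2 RNAs of DKC1 it was 0.

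Of 9 scaRNAs, 5 were above the floor and 0 were called in any of the 5 comparisons. ACA12_st is given above. ACA57_st (SCARNA11, in CHD4) had 2.63 and 3.52 in LINC00324 siRNA 2, 2.62 and 2.61 in siRNA 1, and 2.68 and 3.63 in scramble arrays, with replicates of 2 of these groups nearly 1 unit apart. ACA26_st (SCARNA4, in KHDC4) had 1.94 and 2.49 in siRNA 2, 1.52 and 1.73 in siRNA 1, and 1.76 and 2.22 in scramble arrays. ACA11_st (SCARNA22, in NSD2) differed by 0.01 in siRNA 2 and -0.04 in siRNA 1 from scramble. For ACA11_st the 95% confidence interval was -0.57 to 0.59 in siRNA 2, so changes of that range remain possible. ACA66_x_st (SCARNA20, in USP32) differed by 0.20 ± 0.23 in siRNA 2 and 0.06 ± 0.23 in siRNA 1.

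Spread set what could be seen. The widest errors were those of ACA40_x_st, which had 2.44 and 2.23 in LINC00324 siRNA 2, 3.09 and 1.53 in siRNA 1, and 1.67 and 3.31 in scramble arrays. Its difference of -0.16 in siRNA 2 had a 95% confidence interval of -1.60 to 1.29. ACA15_s_st, with 3.31 and 4.68 in scramble arrays, had an interval of -1.32 to 0.86 for siRNA 2. The narrowest standard error was that of ACA3-2_x_st, whose interval for siRNA 2 was -0.20 to 0.49. The number of arrays limits the precision of every value.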

How the data were processed

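The values are log2 signals that the authors normalized and deposited in 1 table of 20706 rows and 10 arrays. Per the submitters' processing notes limma was used, version unstated. How background was corrected, how arrays were normalized and which build was used is not given here. The LINC00324 and scramble columns equal the authors' LINC00324 table, and the LOC400043 columns belong to a second run, whose scramble means of mature microRNAs differ from the first by a median of 0.08 (SD 0.24 over 318 probe sets). Per-sample values in 4 columns of the authors' LOC400043 file match no label and were left out.

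Tests used limma 3.58.1 in R 4.3.3 on the deposited log2 values. The fit had 1 mean per group over all 10 arrays, eBayes moderation (5 residual and 2.61 prior degrees of freedom) and Benjamini-Hochberg adjustment at 0.05 over the 725 human probe sets above the floor. The fit was tested on simulated data. Intervals are 95% from the moderated fit, which assumes like spread in all groups.

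The members and lists were chosen with earlier results of these data known, and the lists were corrected against RefSeq hosts once the files were read. RNAs were matched to RefSeq (GRCh38.p14) by name: 75 to 1 gene, 1 (ACA59) to 2 and 1 (ACA59B) to none. Sequences are RefSeq's. Named members were those passing by size, filled to 6 a comparison by lowest p, the 10 brightest and 5 dimmest in scramble, those at the floor, all scaRNAs above it and list members. Alternatives are in the closing section: normalization, filter, rows tested, averaging by RNA, moderation, arrays fitted, replicate block and leaving out arrays. The main fit did not pair samples by replicate number.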

Additional observations from a re-analysis of the deposited data

How the results depend on the processing

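The count of ACA probe sets past the threshold for LINC00324 siRNA 2 against scramble, 1 as reported, was 0 with all rows of the value table, with no filter on low values, with only the arrays compared, with probe sets of 1 RNA averaged and after quantile normalization. It was 2 with snoRNA and scaRNA rows only or with trend and robust moderation, 3 with the stricter floor of 4.50, which 6 ACA probe sets pass, and 7, all higher, with arrays centred on the median. Leaving out any array gave no call, but such fits keep 1 array in a group and calls fell over all 725 as well. Over all 725, the 103 calls became 44 after quantile normalization, 0 with only the arrays compared and 147 with arrays centred on the median. The cause was not tested. Centring moved the median of all 725 probe sets from 0.09 to 0.33, so those 7 calls are relative to that shift. Both siRNAs together against scramble gave 1 with arrays centred on the median (ACA44_s_st, 0.68, adjusted p = 0.0424), and LINC00324 siRNA 2 against siRNA 1 gave 1 with the stricter floor (ACA44_s_st, adjusted p = 0.0374). LINC00324 siRNA 1 against scramble and LOC400043 siRNA 2 against siRNA 1 gave 0 under every alternative run.

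ACA44_s_st in LINC00324 siRNA 2 kept its sign, at 0.33 after quantile normalization (adjusted p = 0.249) and 0.73 to 0.86 when arrays were left out. Among 30 named differences under their alternatives, 361 of 381 values kept sign and side of the threshold, 11 newly passed, 9 no longer passed and none changed sign. These counts do not measure robustness. Changes of the rows tested, filter, moderation or replicate block, or fitting only the arrays compared, left the differences as they were. Those signs could not change. The named differences were also picked by lowest p in these data, and only ACA44_s_st in LINC00324 siRNA 2 had passed.

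Replicate numbers are shared by the groups, and deviations of same-numbered arrays correlated at -0.266 to 0.17 over 10 pairs of groups. Such correlations cannot decide whether same-numbered arrays were prepared together. The main fit did not pair them. With the replicate block the count for LINC00324 siRNA 2 was 0 (ACA44_s_st, adjusted p = 0.0702), and the others stayed at 0.

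With 2 arrays a group, and with 31 of the 43 ACA probe sets under a mean of 3, signal over background limits most members.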
